A study of Mus musculus with 11 samples.

Results

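*Pde10a*, which encodes a phosphodiesterase that breaks down both cAMP and cGMP, was followed in mouse DRGs together with 9 further genes of the same enzyme family, *Pde1a*, *Pde1c*, *Pde2a*, *Pde3b*, *Pde4a*, *Pde4b*, *Pde4d*, *Pde7b* and *Pde8b*. The 10 genes were the rows of the expression table that carry these symbols, out of 36670 genes in the table and 24 phosphodiesterase genes on a list of the family. *Pde10a* was picked because of its low level in *Gpr37l1*-KO mice after paclitaxel. Its values in all comparisons are therefore given as a description, and no interval or p of this gene serves as a test. The other 9 genes were picked by name, with earlier results of these data known.

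DRGs contain primary sensory neurons, satellite glia and Schwann cells. Poly(A) RNA of DRGs from 11 mice was sequenced, 1 library per mouse, in 4 groups. WT mice were sequenced as controls (n = 3) or 4 weeks after paclitaxel (PTX, a microtubule-binding chemotherapy drug that causes neuropathic pain; n = 3). *Gpr37l1*-KO mice were likewise sequenced as controls (n = 3) or 4 weeks after the drug (n = 2). *Gpr37l1*, an orphan GPCR of satellite glia, was deleted in the germ line in the KO mice. Each group held 1 female mouse and otherwise male mice by the labels. The age of the sequenced mice and the PTX dose were not given in the labels. These call the mice without PTX controls and mark them with the letter V in the descriptions.

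Cyclic nucleotide phosphodiesterases end cAMP and cGMP signals by hydrolysing these messengers. In sensory neurons, cAMP made by adenylyl cyclases acts through protein kinase A, Epac proteins and cyclic nucleotide–gated channels, and a rise in cAMP is known to sensitise nociceptors. PDE10A itself is best known from medium spiny neurons of the striatum, where it is abundant.

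Totals of the estimated counts ranged from 52735648 to 80348732 per library, and 4 libraries, WT control 1, WT PTX 3 and both KO PTX libraries, lay at the low end. *Gpr37l1* measured 14.56 to 35.70 FPKM in the 6 WT libraries, 0.21 to 0.29 in KO controls, and 0.60 and 1.15 in the KO PTX mice. FPKM scales a level by the length of the gene's transcripts and by library size, so it can be compared between genes. The summed FPKM of 10 sensory neuron markers was 2960 and 3147 in the KO PTX libraries against 2850 to 4056 elsewhere, and that of 7 satellite glia markers was 1061 and 1234 against 1009 to 1446. Markers of spinal cord cells, 12 genes of which none was at 0 in all libraries, summed to 10.35 and 22.49 FPKM in the KO PTX libraries and to 2.49 to 9.26 in the other 9. In bulk tissue, fewer cells of a type and less RNA per cell cannot be told apart.

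*Pde10a* (ENSMUSG00000023868) lies on the plus strand of chr17:8525372-8986645 in mm10 and spans 461.3 kb. GENCODE release M21 lists 14 transcripts for it, which start at several positions across the locus. The deposited data name 7 transcripts for the gene and give 1 value for them together. Upstream sequence is shown for the start sites of *Pde10a* in RefSeq (GRCm38.p6, plus strand), because the results turn on this gene. Its value is not split by start site. Capitals mark CG dinucleotides. Neither window is at the start of the gene's coordinates, 8525372. The first window, chr17:8801495-8801692, stops before the first exon of GENCODE at this start (RefSeq start at 8801745). It lies within the span of 4 transcripts that start further upstream, and held 13 CG in 198 bases with a GC content of 70.7%. The second, chr17:8849735-8849984, lies before the start at 8849985 in introns of 8 transcripts and held 4 CG in 250 bases with a GC content of 56.0%.
Pde10a first start: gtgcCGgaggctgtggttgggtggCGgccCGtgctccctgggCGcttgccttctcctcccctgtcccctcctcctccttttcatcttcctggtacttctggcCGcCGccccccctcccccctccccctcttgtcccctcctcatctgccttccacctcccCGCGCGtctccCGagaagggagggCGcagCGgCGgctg
Pde10a second start: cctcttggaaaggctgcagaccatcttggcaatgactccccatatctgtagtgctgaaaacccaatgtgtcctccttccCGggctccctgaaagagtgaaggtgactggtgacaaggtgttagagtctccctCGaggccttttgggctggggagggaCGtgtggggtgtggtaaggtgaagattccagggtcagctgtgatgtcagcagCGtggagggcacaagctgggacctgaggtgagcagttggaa
The letters TGACG of the cAMP response element, searched on both strands, occurred in neither 250-base window of *Pde10a*. They occurred in 3 of 28 windows (10.7%) of the 9 of the 10 genes that were in the RefSeq table, and in 17.8% of all 32851 windows of that length. The palindrome TGACGTCA, which contains TGACG, was in none of the 28 windows and in 1.55% of all windows.

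The level of *Pde10a* was 1.60, 1.91 and 2.40 FPKM in WT controls, 2.52, 2.25 and 2.91 in WT PTX mice, and 2.36, 2.22 and 2.44 in KO controls. In the KO PTX mice it was 0.22 in the male and 0.22 in the female. Both KO PTX libraries thus lay below the other 9, whose lowest value was 1.60, in mice of either sex. Of the genes tested, 1.55% had both KO PTX libraries below the other 9 and 2.28% had both above.

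The estimated counts behind these levels were 1176, 1990 and 2282 in WT controls, 2794, 2437 and 2271 in WT PTX mice, 2487, 2428 and 2604 in KO controls, and 169 and 174 in KO PTX mice. WT control 1 and WT PTX 3, the other libraries at the low end of depth, held 1176 and 2271 counts. The part of depth in the low values was not tested. The FPKM and the counts come from the same reads and are not independent measures. The summed spinal cord markers were also higher in the KO PTX libraries, at 10.35 and 22.49 FPKM, than in the other 9. Next came WT control 1 at 9.26 and WT PTX 3 at 7.22, and KO controls reached at most 4.37. *Pde10a* was at 1.60 FPKM in WT control 1 and at 2.91 in WT PTX 3. The part of these markers in the values of *Pde10a* was not tested.

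**Figure D1:**
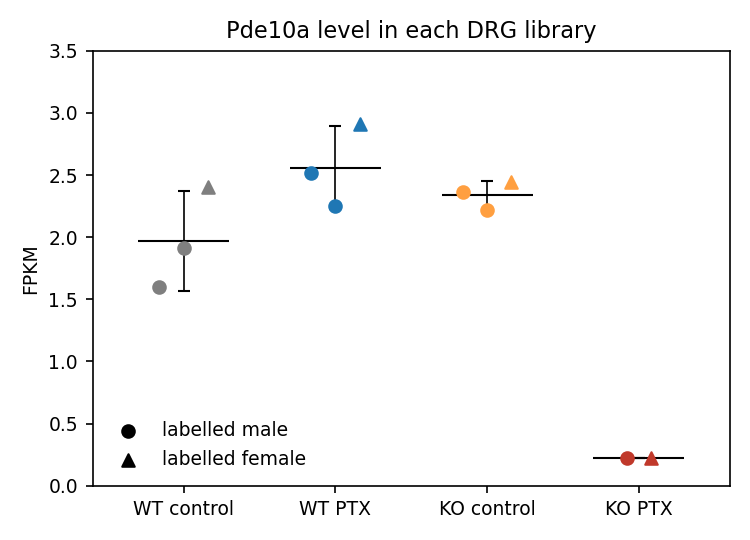
*Pde10a* level (FPKM, linear axis from 0) in each library by group, with circles for mice labelled male and triangles for mice labelled female; black lines are group means and bars 1 SD. The 2 KO PTX libraries sit at 0.22, below the other 9 libraries at 1.60 to 2.91.

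By group, *Pde10a* averaged 1.97 ± 0.40 FPKM in WT controls (SD, n = 3), 2.56 ± 0.33 in WT PTX mice (SD, n = 3), 2.34 ± 0.11 in KO controls (SD, n = 3) and 0.22 in KO PTX mice (n = 2, equal values). The fitted log2 difference between KO PTX and KO control mice was −3.44 (SE 0.15), which is 10.8-fold lower in KO PTX mice. Against WT PTX mice it was −3.56 (SE 0.15), or 11.8-fold lower. These comparisons share the KO PTX libraries, and they are the ones for which the gene was chosen. Among 15087 genes tested, the log2 difference of *Pde10a* was the 11th lowest in the first and the 13th lowest in the second. In rank by FPKM within a library, *Pde10a* stood at the 23.4th to 37.5th percentile of tested genes in the 9 other libraries. In KO PTX mice it stood at the 0.4th and 0.7th. The tested genes had a mean of at least 0.5 FPKM, which *Pde10a* reached only through the 9 other libraries. A place near the bottom at 0.22 FPKM therefore follows from that filter.

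PTX in WT mice gave a log2 difference of 0.38 for *Pde10a* (SE 0.11, 95% interval 0.14 to 0.63). KO against WT controls gave 0.26 (SE 0.11, 95% interval 0.02 to 0.51), and 0.17 without WT control 1. Both intervals leave out 0 but are not adjusted for the number of genes tested. The adjusted p was 0.253 with PTX in WT mice and 0.657 between controls by edgeR, so both differences failed the correction. The groups overlapped in both comparisons, which share the WT controls. WT PTX mice and KO controls were also the groups against which the low level in KO PTX mice stood out, and a gene chosen for a large gap to them tends to be high there, so these differences are no independent test. WT control 1, with the lowest *Pde10a* level of the 9 libraries, was also the shallowest library. The change with PTX in KO mice less that in WT mice was −3.82 on the log2 scale (SE 0.18), again a description since it contains the KO PTX libraries.

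*Pde2a*, a cGMP-stimulated enzyme that acts on both messengers, had the highest level of the 10 genes, with a mean of 20.2 ± 0.99 FPKM (SD, n = 11). *Pde8b* followed at 3.90 ± 0.63 and *Pde1c* at 3.83 ± 0.50, then *Pde3b* at 2.59 ± 0.35. *Pde10a*, at its mean of 2.29 ± 0.37 FPKM over the 9 libraries outside the KO PTX group (SD, n = 9), came next. *Pde4b* at 1.78 ± 0.29, *Pde1a* at 1.62 ± 0.22, *Pde4a* at 1.14 ± 0.19, *Pde4d* at 0.877 ± 0.15 and *Pde7b* at 0.814 ± 0.094 completed the order. Of neighbours in this order, *Pde2a* lay above *Pde8b* and *Pde1c* above *Pde3b* with no overlap over the 11 libraries. *Pde8b* was above *Pde1c* in 7 of 11 libraries and *Pde4d* above *Pde7b* in 6 of 11. *Pde10a* was above *Pde4b* in 8 of 11 libraries. It was below *Pde7b*, the lowest of the other 9 by mean over the 11 libraries, in both KO PTX libraries.

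**Figure D2:**
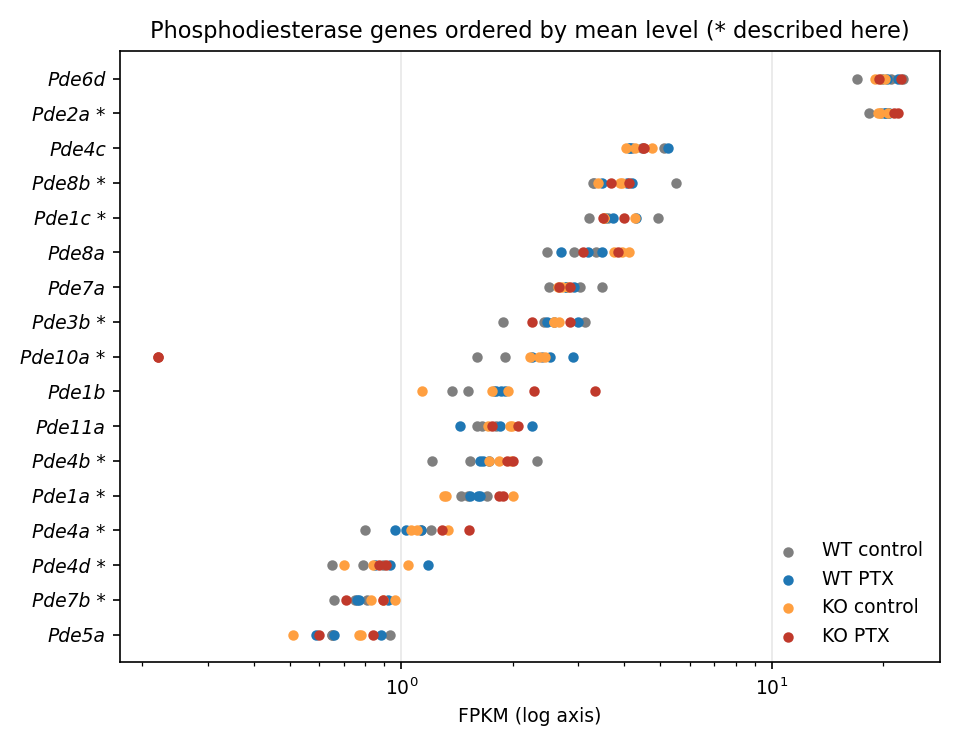
FPKM (log axis) of the 17 phosphodiesterase genes with a mean of at least 0.5, ordered by their mean over 11 libraries; each point is a library, coloured by group, and stars mark the 10 genes described. The KO PTX points of *Pde10a*, which coincide at 0.22, lie apart from its other 9 points, and those of *Pde1b*, at 2.28 and 3.33, lie to the right of its other 9.

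*Pde2a*, *Pde1a*, *Pde1c* and *Pde3b*, the other dual-substrate genes of the 10, had levels in the KO PTX mice within or just above the range of the other libraries. *Pde2a* measured 19.65, 18.24 and 20.58 FPKM in WT controls, 20.22, 20.68 and 20.14 in WT PTX mice, 19.39, 19.57 and 20.57 in KO controls, and 21.35 and 21.85 in KO PTX mice. Both KO PTX values were above the other 9, by little: the log2 difference between KO PTX and KO control mice was 0.11 (SE 0.07, 95% interval −0.03 to 0.26), with an adjusted p of 0.999 by edgeR. Against WT PTX mice it was 0.08 (SE 0.07), with an adjusted p of 0.993 by edgeR.

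*Pde1a* and *Pde1c* encode calmodulin-activated enzymes. *Pde1a* was at 1.70, 1.45 and 1.51 FPKM in WT controls, 1.63, 1.53 and 1.61 in WT PTX mice, 2.0, 1.30 and 1.32 in KO controls, and 1.88 and 1.83 in KO PTX mice. KO control 1 was the highest of the 11, so KO PTX and KO control mice overlapped, and their log2 difference of 0.30 (SE 0.18, 95% interval −0.11 to 0.71) had an adjusted p of 0.999 by edgeR. It was 0.51 without KO control 1, 0.20 without KO control 2 and 0.18 without KO control 3. *Pde1c* ranged from 3.21 to 4.94 FPKM with both extremes in WT controls, and its intervals over the 5 comparisons reached from −0.51 to 0.54.

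*Pde3b* encodes the cGMP-inhibited enzyme known from fat and liver cells, where it takes part in the insulin response. It ranged from 1.88 to 3.14 FPKM, again with both extremes in WT controls, and was at 2.85 and 2.25 in KO PTX mice. Its intervals reached from −0.71 to 0.48.

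The *Pde4* genes encode cAMP-specific enzymes, the targets of rolipram. *Pde4a* was at 0.80, 1.13 and 1.20 FPKM in WT controls, 0.96, 1.13 and 1.03 in WT PTX mice, 1.06, 1.10 and 1.34 in KO controls, and 1.29 and 1.52 in KO PTX mice. It was higher in each KO PTX mouse than in each WT PTX mouse, with a log2 difference of 0.40 (SE 0.16, 95% interval 0.04 to 0.76). The unadjusted p was 0.0341 and the adjusted p 0.993 by edgeR, so the difference failed the correction over all genes. *Pde4b* was also higher in both KO PTX mice, at 2.0 and 1.93 FPKM, than in the WT PTX mice, at 1.72, 1.66 and 1.63. That difference was 0.26 on the log2 scale (SE 0.21, 95% interval −0.20 to 0.72, adjusted p of 0.993 by edgeR), while WT controls alone spread from 1.21 to 2.32.

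*Pde4d* measured 0.65, 0.79 and 0.89 FPKM in WT controls and 1.18, 0.85 and 0.93 in WT PTX mice. These groups overlapped, and the log2 difference of 0.35 with PTX in WT mice (SE 0.16, 95% interval −0.02 to 0.71) had an adjusted p of 0.387 by edgeR, the lowest of the 9 genes other than *Pde10a* in any comparison. Without WT PTX 1 the difference was 0.16. KO mice were at 0.84, 0.70 and 1.04 FPKM as controls and at 0.91 and 0.87 after PTX.

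*Pde7b* and *Pde8b* encode further cAMP-specific enzymes, insensitive to rolipram. *Pde7b* was at 0.75, 0.81 and 0.66 FPKM in WT controls and at 0.89, 0.83 and 0.96 in KO controls, the only one of the 10 genes for which these groups did not overlap. Of all genes tested, 9.28% did not overlap between the controls. The log2 difference was 0.25 (SE 0.13, 95% interval −0.05 to 0.55), with an adjusted p of 0.674 by edgeR, and it fell to 0.09 without WT control 3. *Pde8b* ranged from 3.30 to 5.51 FPKM, both in WT controls, and was at 4.12 and 3.69 in KO PTX mice.

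**Figure D3:**
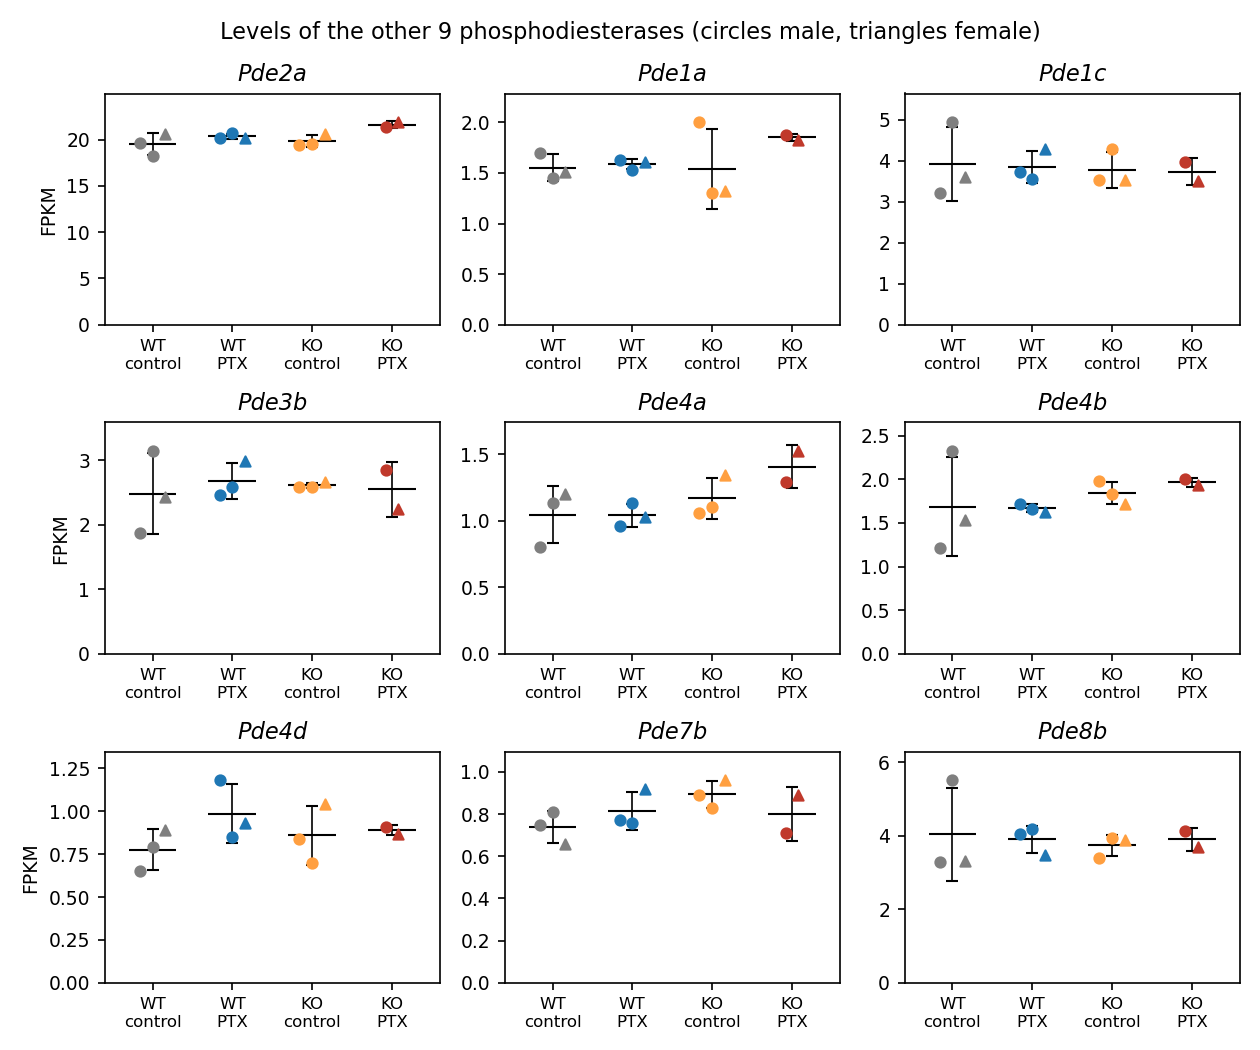
FPKM of the 9 other genes in each library (linear axes from 0, scaled per gene), by group, with circles for male and triangles for female mice, lines for group means and bars for 1 SD. No gene shows a drop in KO PTX mice like that of *Pde10a*; *Pde2a* lies at 21.35 and 21.85 there, above its other 9 values.

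Of the 9 genes other than *Pde10a*, edgeR called 0 in each of the 5 comparisons, and DESeq2 and limma also called 0. Over all genes, edgeR called 0.00663% with PTX in WT mice, 0.00663% between controls and 0.00663% with PTX in KO mice. It called 0.0133% between genotypes after PTX and 0.00663% in the difference of PTX effects. These shares are 1 gene each, and 2 genes between genotypes after PTX. In each comparison with KO PTX mice, *Pde10a*, picked for its low level there, was among them. DESeq2 called 2.05%, 0.278%, 0.192%, 0.0663% and 0.0795% in the same order. At an unadjusted p under 0.05, edgeR had 1 of the 9 genes between genotypes after PTX, *Pde4a*, and 0 in the other comparisons. Over all genes the share at that limit was 13.5% with PTX in WT mice, 7.54% between controls, 4.32% with PTX in KO mice, 3.55% between genotypes after PTX and 6.30% for the difference of PTX effects. A count of 0 among 9 genes does not show that the genes stayed the same.

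With PTX in WT mice, the log2 differences of the 9 genes ran from −0.05 to 0.35 and their 95% intervals from −0.42 to 0.71. With PTX in KO mice they ran from −0.17 to 0.30, with intervals from −0.51 to 0.71. Between genotypes after PTX they ran from −0.17 to 0.40, with intervals from −0.58 to 0.76. Between controls they ran from −0.10 to 0.25, with intervals from −0.48 to 0.55, and for the difference of PTX effects from −0.31 to 0.27, with the widest intervals, from −0.86 to 0.82. Each interval of these 9 genes thus left out a change as large as that fitted for *Pde10a* in the comparisons with KO PTX mice. Among the 10 genes, KO PTX mice did not overlap with KO controls in 2, *Pde10a* and *Pde2a*, against 21.6% of all genes, and not with WT PTX mice in 5 (*Pde10a*, *Pde1a*, *Pde2a*, *Pde4a* and *Pde4b*), against 20.2% of all genes. With PTX in WT mice the groups overlapped for all 10 genes, and 14.2% of all genes did not overlap. The comparisons share groups with each other and are not separate evidence.

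**Figure D4:**
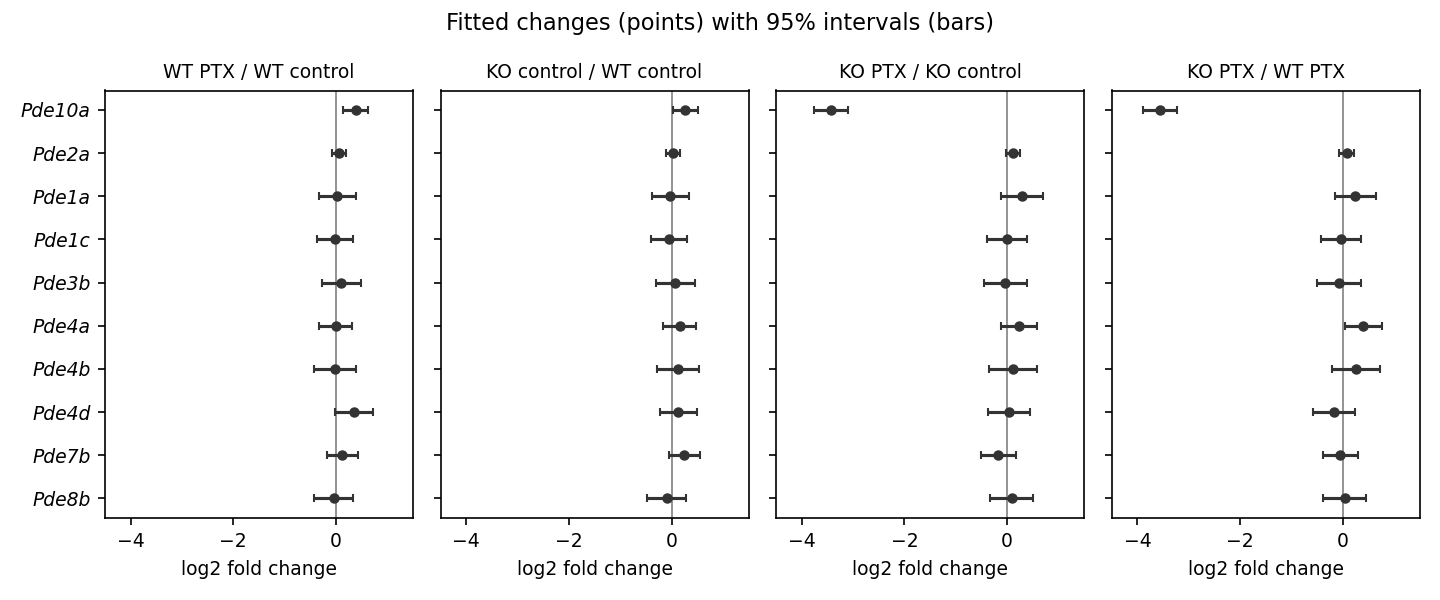
Fitted log2 fold changes of the 10 genes (points) with 95% intervals (bars) in 4 comparisons, first group over second. *Pde10a* lies at −3.44 and −3.56 in the comparisons with KO PTX mice, values for which it was chosen, and the other points lie between −0.17 and 0.40.

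Another 14 phosphodiesterase genes were in the table, of which 6 had a mean of at least 1 FPKM. *Pde6d* was at 20.3 FPKM, *Pde4c* at 4.49, *Pde8a* at 3.35, *Pde7a* at 2.84, *Pde1b* at 1.88 and *Pde11a* at 1.83. *Pde6d* is named for the photoreceptor enzyme but encodes a chaperone of prenylated proteins that is found in many tissues. The other 8 were below 1 FPKM.

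*Pde1b*, the third calmodulin-activated gene, was at 2.28 and 3.33 FPKM in KO PTX mice and at 1.14 to 1.94 in the other 9. The log2 difference was 0.76 with PTX in KO mice (SE 0.21, unadjusted p 0.0045, adjusted p of 0.999 by edgeR). Between genotypes after PTX it was 0.54 (SE 0.21, adjusted p of 0.993 by edgeR), and 0.34 without KO PTX 3. The summed spinal cord markers were also higher in these mice, at 10.35 and 22.49 FPKM against 2.49 to 9.26. Their part in the result was not tested. *Pde8a* was at 2.47, 2.93 and 3.36 FPKM in WT controls and at 3.94, 3.76 and 4.11 in KO controls. That log2 difference was 0.44 (SE 0.11, unadjusted p 0.00256, adjusted p of 0.657 by edgeR) and so failed the correction.

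Summed by substrate, the 8 dual-substrate genes measured 31.7 to 35.6 FPKM per library and the 8 cAMP-specific genes 16.4 to 22.1. The 8 genes of the cGMP-specific group summed to 18.3 to 24.3 FPKM with *Pde6d* and to 1.29 to 1.96 without it. *Pde2a* made up 55.5% to 62.2% of the dual-substrate sum. *Pde10a* made up 5.05% to 8.18% of that sum in 9 libraries and 0.63% in each KO PTX library. Without *Pde10a*, the dual-substrate sum was 34.6 and 34.9 FPKM in KO PTX mice against 30.1 to 32.7 in the others. *Pde2a* and *Pde1b*, both in that sum, lay above their other 9 values in these mice. The sum of all groups without *Pde6d* ranged from 49.6 to 57.2 FPKM over the 11 libraries, and from 49.6 to 56.3 within WT controls. That spread exceeded the whole level of *Pde10a*, so this sum could not show its drop.

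**Figure D5:**
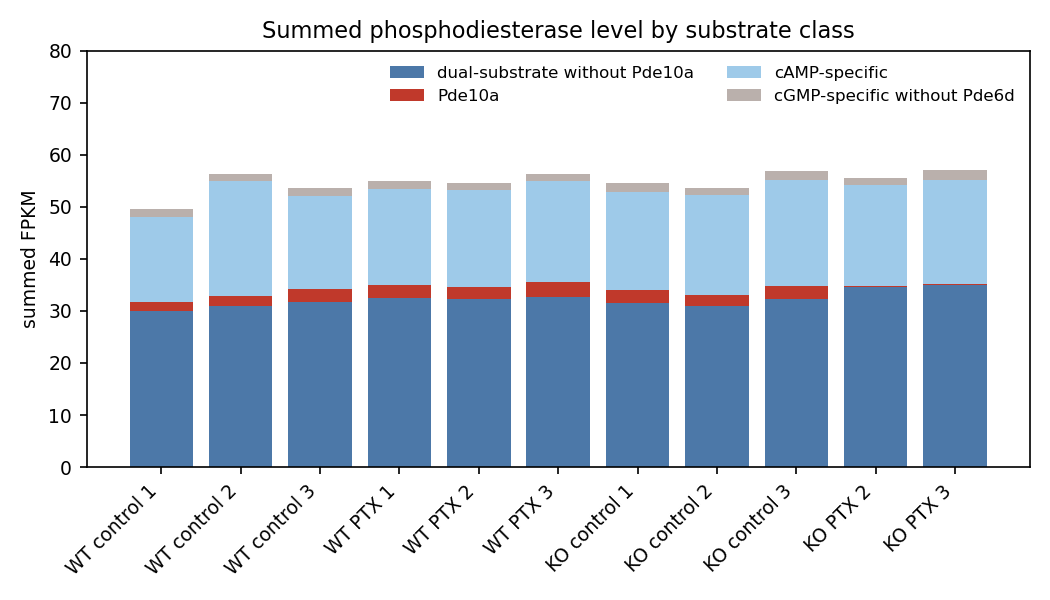
Summed FPKM of phosphodiesterase genes in each library (bars from 0), split by substrate class, with *Pde10a* shown apart and *Pde6d* left out. The *Pde10a* segment is 5.05% to 8.18% of the dual-substrate sum in 9 libraries and 0.63% in each of the 2 KO PTX libraries. The full height runs from 49.6 to 57.2 FPKM, a spread larger than the *Pde10a* segment.

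Further genes of the pathway were taken from 6 lists of 74 genes, adenylyl cyclases, guanylyl cyclases and nitric oxide synthase, kinases and other cyclic nucleotide sensors, channels, CREB factors with their targets, and anchoring or partner proteins. Of these, 57 were tested and edgeR called 0 in each of the 5 comparisons. At an unadjusted p under 0.05 there were 9 with PTX in WT mice (15.8%, against 13.5% of all genes), 2 between controls (3.51% against 7.54%), 1 with PTX in KO mice (1.75% against 4.32%), 1 between genotypes after PTX (1.75% against 3.55%) and 3 for the difference of PTX effects (5.26% against 6.30%).

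The smallest p with PTX in WT mice belonged to *Prkacb*, a catalytic subunit of protein kinase A. It was at 22.40, 27.71 and 31.84 FPKM in WT controls and 34.93, 33.56 and 34.64 in WT PTX mice, without overlap. Of all genes tested, 14.2% did not overlap in this comparison. The value of 22.40 was that of WT control 1, the shallowest library. The log2 difference of *Prkacb* was 0.33, and 0.23 to 0.44 with 1 library left out. Its adjusted p was 0.244 by edgeR and 0.0367 by DESeq2. DESeq2 thus called 1 of the 57 tested pathway genes in this comparison, against 2.05% of all genes, and 0 in the others. *Gucy1b1*, the beta subunit of soluble guanylyl cyclase, was at 1.61 and 2.16 FPKM in KO PTX mice against 1.15, 1.02 and 1.49 in WT PTX mice. Its log2 difference of 0.59 had an adjusted p of 0.993 by edgeR, short of the threshold.

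Around *Pde10a*, the table held 32 genes within 1000 kb, of which 8 were tested and 0 were called by edgeR in any comparison. With PTX in KO mice their log2 differences ran from −0.88 to 0.08, with 1 of the 8 at an unadjusted p under 0.05, against 4.32% of all genes. With PTX in WT mice they ran from −1.47 to 0.17, also with 1 of the 8, against 13.5% of all genes. The other comparisons had 0 at that limit. *Gm15425*, which lies within the *Pde10a* locus on the other strand, was listed at 0 in all libraries except 1, where it was at 0.02 FPKM.

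Likeness to *Pde10a* was described by Pearson's r of log2(FPKM + 1) over tested genes. Over all 11 libraries the nearest were *Gm10051* (r = 0.886), *Mpzl1* (r = 0.870), *Rps23-ps2* (r = 0.869), *Gm6363* (r = 0.853) and *Gm43587* (r = 0.851), an order set by the KO PTX libraries. *Mpzl1* was at 6.37 and 6.41 FPKM there and at 7.10 to 7.66 elsewhere, a much smaller gap than that of *Pde10a*. Over the 9 other libraries the nearest were *Ebf3* (r = 0.991), *Gnaq* (r = 0.989), *Son* (r = 0.988), *Plxnc1* (r = 0.987) and *Tsga10* (r = 0.986). These did not share the drop of *Pde10a*: *Tsga10* was at 1.89 and 1.92 FPKM in KO PTX mice and at 1.47 to 2.38 in the others. In *Pde10a* and in these 5 genes alike the lowest of the 9 values was that of WT control 1, the shallowest library, and r is given with no p. Of the other 9 phosphodiesterases, *Pde4d* was nearest over the 9 libraries (r = 0.706) and *Pde8b* farthest (r = −0.208).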

How the data were processed

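RNA-Seq data of DRGs from 11 mice were analysed. Per the submitters' processing notes, cutadapt, FastQC, HISAT2 and StringTie were used with mm10, and their versions are not given in the sources used here. The authors deposited 1 table of 36670 genes with FPKM values, scaled for transcript length and library size, and estimated counts without normalization. The deposited counts are whole numbers, but 1369 genes had a count of 4 in WT control 1 against 573 with 3 and 334 with 5, so these estimated counts are not tallies of fragments. Totals were 52735648 to 80348732 per library.

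Levels were taken from FPKM. Differences were tested with edgeR 4.0.16 (R 4.3.3) on the counts, TMM-normalized, by quasi-likelihood in 1 fit of all libraries with 4 group means and the labelled sex. The 15087 genes with a mean of at least 0.5 FPKM were tested, with Benjamini-Hochberg adjustment over all of them and a threshold of 0.05. SEs were obtained as log2 fold change over √F. Replicates were different mice. Members and gene lists were chosen with earlier results of these data known. The genes named were the 10 members, family genes with a mean of at least 1 FPKM, at most 2 pathway genes per list and comparison with the smallest p, neighbours of *Pde10a* and the 5 genes most like it. *Gucy1b1* and *Prkacb* were picked for print after their values were seen, within that rule. The promoter windows and their motifs were also added after the data were seen.

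Alternatives were DESeq2 1.42.0, RLE size factors, no filter, a mean of at least 1 FPKM, no sex term, a replicate block, limma 3.58.1 on log2(FPKM + 1) and log2(FPKM + 0.1), and each replicate left out. The titles and descriptions number the KO PTX mice differently, and the descriptions were used, as 2 and 3. In simulated data with 200 of 15087 genes changed 2-fold, edgeR recovered 67.0% with PTX in KO mice and 78.0% with PTX in WT mice. It made 5 and 6 false calls. The simulated counts followed the fitted trend of spread, with no spread of each gene's own. Many changed genes also ease the adjustment, so these shares need not hold for the real data. Residuals from the group means, with sex left in, had r of 0.113, 0.116 and 0.23 between same-numbered controls of the 2 genotypes. No r of differently numbered mice was computed beside these, and the pairing comes from the labels' numbers. Replicate 3 was the female in each group, so sex and that number cannot be told apart. Tables were made with Python 3.11.15, pandas 2.3.3, numpy 2.4.6 and scipy 1.17.1, and plots with matplotlib 3.10.9.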

Additional observations from a re-analysis of the deposited data

Results flagged for a closer look

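The change of *Pde10a* with PTX differed between KO and WT mice by −3.82 on the log2 scale (SE 0.18), a difference of 2 PTX effects over all 4 groups. The gene was chosen for its low level in the KO PTX mice, so this value describes the pattern and is no test of it. It rests on 2 libraries, and leaving out each library in turn gave values from −3.94 to −3.69.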

How the results depend on the processing

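The number of genes other than *Pde10a* called among the 10 was 0 under every alternative run, in each of the 5 comparisons. The log2 difference of *Pde10a* with PTX in KO mice ran from −3.57 to −3.32 over libraries left out, that between genotypes after PTX from −3.68 to −3.43. On log2(FPKM + 0.1) with limma they became −2.97 and −3.08, and the difference of PTX effects became −3.34. On log2(FPKM + 1) they became −1.48, −1.57 and −1.74, since an added 1 exceeds the level of 0.22 FPKM. With PTX in WT mice *Pde10a* kept its direction, at 0.27 to 0.48 over the alternatives, and between controls it was 0.17 to 0.36. With the replicate block in place of sex, *Pde10a* was at 0.38 with PTX in WT mice, 0.26 between controls, −3.44 with PTX in KO mice, −3.56 between genotypes after PTX and −3.83 for the difference of PTX effects, and the block changed no call among the genes and comparisons reported. For same-numbered mice in the other pairs of groups, r ran from −0.164 to 0.164 and was positive in the pairs with KO PTX mice. No r of differently numbered mice was computed beside it. Without *Pde6d*, an alternative added after the data were seen, the median sum of the cGMP-specific group fell from 21.6 to 1.52 FPKM. The largest difference among the other 9 genes moved with 1 library: between controls it was 0.25, and 0.43 without WT control 2. With PTX in KO mice it was 0.30, and 0.51 without KO control 1. With PTX in WT mice it was 0.35, and 0.17 without WT PTX 1. For the difference of PTX effects it was 0.31, and 0.48 without KO control 1. *Prkacb* with PTX in WT mice passed the threshold with DESeq2 alone (adjusted p of 0.0367).

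The 95% intervals of the 9 other genes reached from −0.51 to 0.71 with PTX in KO mice and from −0.42 to 0.71 in WT mice. The upper ends were those of *Pde1a* in KO mice and *Pde4d* in WT mice. The interval of *Pde2a* was narrower, −0.03 to 0.26 in KO mice and −0.07 to 0.19 in WT mice. For each gene, changes within its own interval remain possible.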
